A study of Mus musculus with 23 samples.

Results

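Gasdermins are a family of proteins whose amino-terminal part, once released by cleavage, forms pores in cell membranes. The 7 genes described here are Gsdmc, Gsdmc2, Gsdmc3, Gsdmc4, the pseudogene Gsdmcl-ps, Gsdma and Gsdmd, out of 18193 genes with an array probe set of their own. They were chosen by name, with their measured values in these same arrays already known: several had stood out with TNBS. Their levels and differences are therefore given as a description, without p-values, and a call on a member adds no support to the choice. Every probe set annotated to at least 1 of the 7 genes was used, which gave 9 of 45037 probe sets. Of these 9 sets, 5 name 1 gene and 4 name several. Gsdmc2, Gsdmcl-ps, Gsdma and Gsdmd have sets of their own, whereas Gsdmc and Gsdmc4 are named only by sets they share with Gsdmc2. Gsdmc3 has no set, so 6 of the 7 genes could be read.

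The study set Fn14 knockout mice against wild-type mice of the BALB/c strain in chronic colitis, with 1 array of total colon RNA per sample. The titles name BALB/c for the wild-type samples and no strain for the knockout samples. Fn14, encoded by Tnfrsf12a, is the receptor of the cytokine TWEAK. The groups were WT_TNBS (wild type given TNBS, 6 samples), WT (wild type without TNBS, 5), KO_TNBS (Fn14 knockout given TNBS, 7) and KO (Fn14 knockout without TNBS, 5). TNBS, a hapten, was given rectally at 0.2% in a mixture of saline and ethanol for 6 weeks, in volumes that grew from 1 to 2 ul per g body weight, and colons were collected 3 days after dosing ended. Ages are not given in the sources used here. No vehicle is named for mice without TNBS, so TNBS and its ethanol cannot be told apart. The labels do not say that the samples of a group are separate mice, so a standard error or p-value measures the spread between these samples, which may be technical.

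The targeted gene followed the labels. Tnfrsf12a lay between 3.84 and 4.17 on the log2 scale in KO_TNBS and between 6.77 and 8.25 in WT_TNBS (log2 difference -3.29 ± 0.197 SE, limma adjusted p = 3.08e-09). In KO it lay between 4.03 and 4.17, against 5.86 to 7.16 in WT (-2.54 ± 0.224, adjusted p = 1.3e-06). Arrays of the same group correlated at 0.992 to 0.998 over all sets. Of 14 markers of colon epithelium none stood at the lowest value of the data in any group. The deposited values ran from 2.17 to 15.98, and 27.9% of them stood at the lowest value.

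In mice the Gsdmc genes lie side by side on chromosome 15, in the order Gsdmc, Gsdmc2, Gsdmc3 and Gsdmc4, with the transcribed pseudogenes Gsdmcl1, Gsdmcl2 and Gsdmcl-ps between and after them (RefSeq, assembly GRCm38.p6). Gsdmc2, Gsdmc3 and Gsdmc4 are known as genes that mouse intestinal epithelium turns up under interleukin-4 and interleukin-13, the cytokines of type 2 immunity, as in worm infection. Gsdmd, also on chromosome 15, is cut by the inflammatory caspases and carries out pyroptosis, and Gsdma, on chromosome 11, is best known from skin. Because the Gsdmc genes are near copies of each other, a probe set can hybridise to transcripts of several of them, and its value may belong to more than the gene it is named for.

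With TNBS, 5 of the 9 member sets rose in wild-type colon and 4 of the 9 rose in Fn14 knockout colon. The sets that rose in both genotypes were the 3 Gsdmc2 sets and the set of Gsdmcl-ps, and Gsdmd was the addition in wild type. Among all sets, 11.2% passed the same threshold (adjusted p under 0.05) in wild type, 5.91% higher and 5.28% lower with TNBS, and 5.34% passed in knockouts, 2.32% higher and 3.02% lower. Since the choice of members used these contrasts, nothing is read from the difference between those shares and the members' counts. The median log2 difference over the 9 sets was 0.52 in wild type and 0.51 in knockouts, where the median over all sets was 0. The wild-type median is the value of a Gsdma set near the lowest values that was not called (0.52 ± 0.522). The knockout median is that of another set, shared by Gsdmc2 and Gsdmc (0.51 ± 0.0678). The 2 medians therefore do not compare the size of the rise between genotypes.

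The set that names Gsdmc2 alone was high on every array. In WT_TNBS its log2 level ran from 13.52 through a median of 13.59 to 13.69, and the 5 WT samples read 12.06, 11.93, 11.46, 12.17 and 11.86. In KO_TNBS it ran from 12.94 through 13.11 to 13.39, and the 5 KO samples read 11.83, 11.61, 12.48, 12.48 and 12.07. With TNBS every sample of each genotype lay above every sample without it, and the order of the group means was WT_TNBS, KO_TNBS, KO and WT, where KO and WT overlapped. The log2 difference was 1.70 ± 0.141 SE in wild type, 3.24-fold on the linear scale, and 1.01 ± 0.136 in knockouts, 2.02-fold. A change in the number of cells that carry a transcript and a change in RNA per cell cannot be told apart in whole-tissue samples.

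The set shared by Gsdmc2 and Gsdmc4 was also higher with TNBS on every array. In WT_TNBS the values ran from 11.92 through 12.15 to 12.31, against 10.73, 10.46, 10.29, 10.79 and 10.54 in WT. In KO_TNBS they ran from 11.57 through 11.96 to 12.10, against 10.36, 10.34, 10.93, 10.95 and 10.40 in KO. Neither genotype's samples with TNBS overlapped those without it. The set averaged 12.14 ± 0.159 in WT_TNBS and 10.56 ± 0.202 in WT (log2, SD), a difference of 1.57 ± 0.132 SE. In KO_TNBS it averaged 11.86 ± 0.194 and in KO 10.60 ± 0.317, a difference of 1.26 ± 0.127.

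The set shared by Gsdmc2 and Gsdmc showed the smallest rise of the 3. Its values ran from 11.65 through 11.76 to 11.86 in WT_TNBS, against 11.09, 11.06, 10.71, 11.14 and 11.09 in WT, and the difference was 0.75 ± 0.0701 on the log2 scale. In KO_TNBS they ran from 11.43 through 11.60 to 11.66, against 10.96, 10.88, 11.18, 11.20 and 11.10 in KO, with a difference of 0.51 ± 0.0678. Samples with TNBS lay above those without it in each genotype. The 3 sets thus give 3 sizes of rise for Gsdmc2 and its copies, and the arrays do not tell which of the genes each rise belongs to.

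The pseudogene Gsdmcl-ps, by its own set, had the largest difference among the members. In WT_TNBS it ran from 7.51 through 8.13 to 8.49 on the log2 scale, whereas the 5 WT samples read 2.38, 2.38, 2.38, 2.68 and 2.32, close to the lowest value in the data. In KO_TNBS it ran from 6.41 through 6.67 to 7.58, and the KO samples read 2.67, 2.29, 3.47, 4.08 and 3.31. No sample with TNBS fell to the level of any without it. The log2 differences of 5.67 ± 0.280 in wild type and 3.78 ± 0.271 in knockouts depend on the low end of the scale: with all values below 5 set to 5 they were 3.10 and 1.95. The pair of sets that Gsdmcl-ps shares with other pseudogenes stayed at the lowest value, the set shared with Gsdmcl2 on all 23 arrays and the set shared with Gsdmcl2 and Gsdmcl1 on 22 of them, with 2.24 on the remaining KO_TNBS array. These sets therefore differ from the Gsdmcl-ps set that names it alone.

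Across the whole fit, 4 of the 9 member sets had samples with TNBS above all samples without it in wild type, where 4.45% of all sets did so (and 3.02% lay below). The same 4 of 9 were above in knockouts, where 1.35% of all sets were above and 1.74% below. These were the 3 Gsdmc2 sets and the Gsdmcl-ps set in both genotypes. The plot of log2 values by array shows these gaps for the measured sets.

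**Figure D1:**
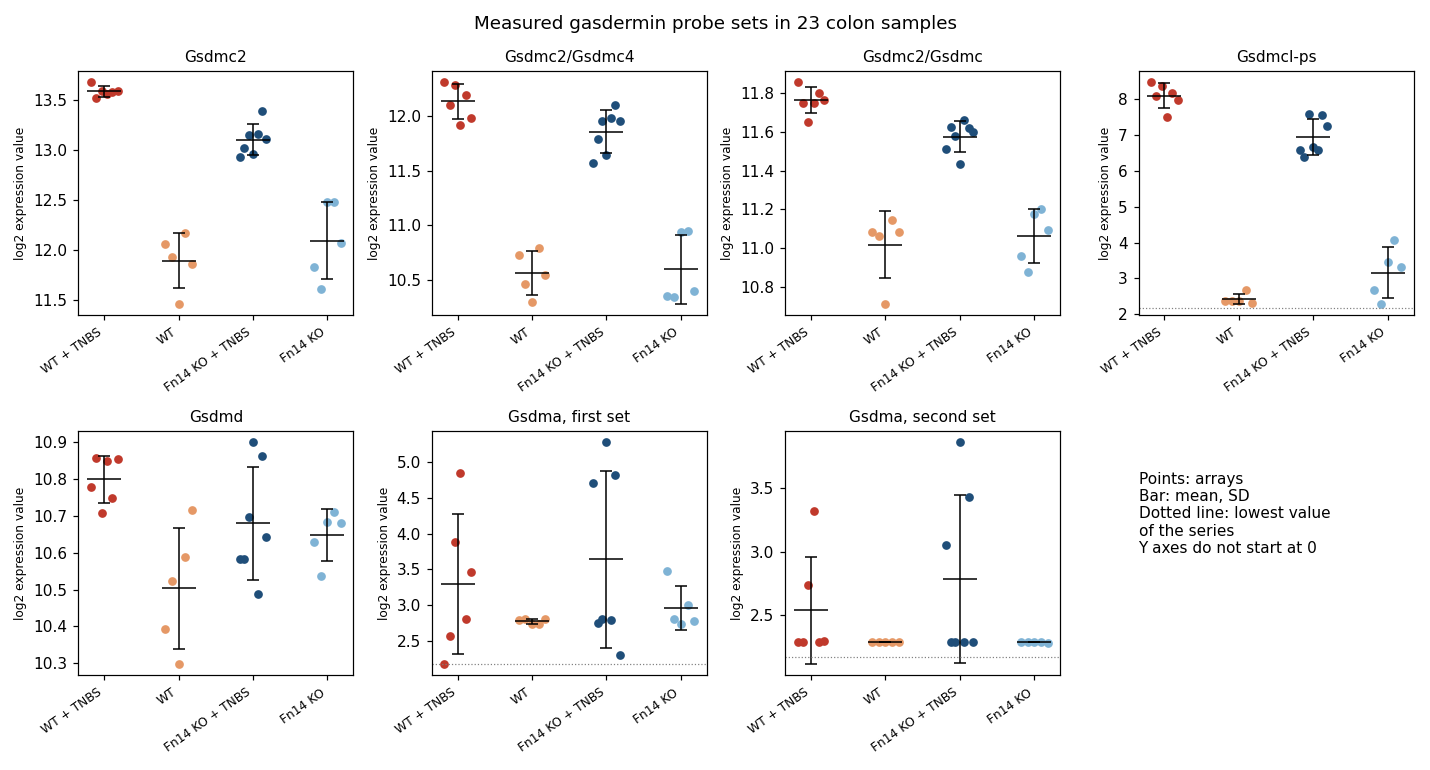
Log2 expression value of the measured gasdermin probe sets in each of 23 colon samples, in 4 groups, 1 point per array with the group mean and SD, on axes that do not start at 0. The 3 Gsdmc2 sets and the Gsdmcl-ps set are higher with TNBS in both genotypes without overlap, and Gsdmd and Gsdma overlap between groups.

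Gsdmd, the pore former of pyroptosis, changed little. It read 10.71 to 10.86 in WT_TNBS with a median of 10.81, and the WT samples read 10.39, 10.52, 10.30, 10.59 and 10.72, so that the groups overlapped. It rose by 0.30 ± 0.0737 on the log2 scale in wild type, and this call was lost when the mean of squamous epithelium markers entered the fit (0.21). In knockouts KO_TNBS ran from 10.49 through 10.64 to 10.90 and KO read 10.63, 10.54, 10.68, 10.71 and 10.68, a difference of 0.03 ± 0.0713 that did not pass.

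Gsdma was near the lowest values of the data in most samples. Its first set ran from 2.17 through 3.14 to 4.85 in WT_TNBS and read 2.78, 2.80, 2.73, 2.73 and 2.81 in WT, with a difference of 0.52 ± 0.522. In KO_TNBS it ran from 2.30 through 2.80 to 5.28 and in KO it read 3.48, 2.81, 2.73, 3.00 and 2.78, a difference of 0.68 ± 0.505. The high values with TNBS came from 3 arrays in each genotype, and neither difference passed. The second Gsdma set differed by 0.25 ± 0.257 in wild type and 0.50 ± 0.249 in knockouts, without a call, and stood at 2.29 on all WT samples.

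The samples in which Gsdma was high were those with high markers of squamous epithelium, a lining known from skin and the anal canal. The mean log2 value of 17 such markers was highest on WT_TNBS replicates 6, 4 and 3 (7.03, 6.98 and 6.94), where Gsdma read 3.47, 4.85 and 3.88. Among knockouts it was highest on KO_TNBS replicates 4, 1 and 6 (8.03, 7.57 and 7.52), where Gsdma read 5.28, 4.71 and 4.82. KO_TNBS replicate 2 went against this, with a squamous mean of 7.31 and Gsdma at 2.76. With that mean as a covariate the Gsdma differences with TNBS in wild type became -0.76 ± 0.406 for the first set and -0.26 ± 0.25 for the second. In knockouts they became -0.61 ± 0.398 and -0.02 ± 0.245. None of these was called, and most Gsdma values lie near the lowest value, so no fall is read from the signs. Without the covariate but with values below 5 set to 5, the first set differed by 0 in wild type and 0.04 in knockouts.

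**Figure D2:**
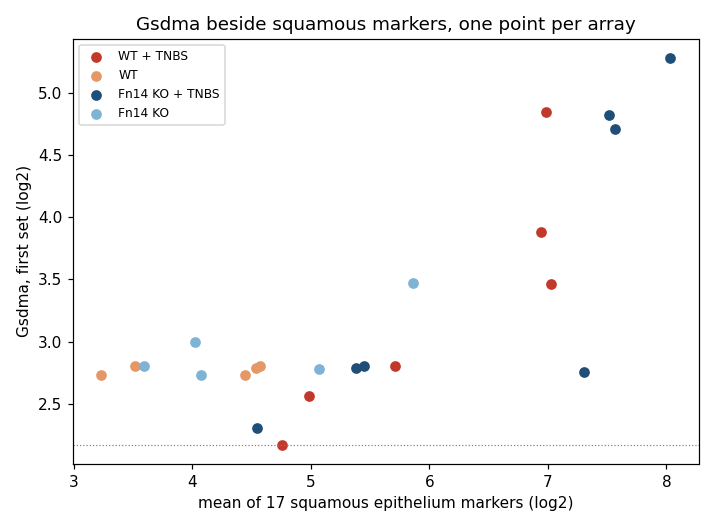
Log2 value of Gsdma against the mean log2 value of 17 squamous epithelium markers, 1 point per array, coloured by group, with the dotted line at the lowest value in the data. The arrays with the highest Gsdma, 4.85 in WT_TNBS and 5.28 in KO_TNBS, lie at the right of the plot.

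Markers of other cell types were read as summed linear signals per array. Squamous markers summed to 1537 to 5954 in WT_TNBS and 815 to 2936 in WT, and to 2377 to 11689 in KO_TNBS and 2641 to 4038 in KO. Of 17 measured, 4 rose in wild type and 1 in knockouts. At an unadjusted limma p under 0.05, in either direction, there were 12 in wild type and 13 in knockouts. The median log2 differences were 1.75 and 1.85. Beside the called counts of this paragraph, 5.91% of all sets rose and 5.28% fell in wild type, and 2.32% rose and 3.02% fell in knockouts. Ivl and Dsg1a were at the lowest value on 14 and 13 arrays. Tgm3, with the highest mean of these markers in every group, weighs heavily in the sums. It went the other way, from 10.79 in WT to 10.14 in WT_TNBS and from 11.31 in KO to 10.84 in KO_TNBS. Leukocyte markers summed to 19353 to 22861 in WT_TNBS and 10086 to 13506 in WT, and to 9567 to 18661 in KO_TNBS and 6866 to 11582 in KO, with 9 of 11 risen in wild type, 8 in knockouts and Itgam at the lowest value on 20 arrays. Colon epithelium markers summed to 135695 to 146866 in WT_TNBS and 140560 to 146215 in WT, and to 134293 to 145986 in KO_TNBS and 144454 to 151536 in KO, with 1 of 14 risen and 2 fallen in wild type and 5 fallen in knockouts. With the squamous mean as a covariate the TNBS differences of the Gsdmc2 set were 1.71 in wild type and 1.02 in knockouts, and those of Gsdmcl-ps 5.93 and 4.04, so that these sets differed by much the same amounts as without it. The mean of colon epithelium markers, a covariate added once results had been seen, gave 1.74 and 1.10 for Gsdmc2 and 5.71 and 3.87 for Gsdmcl-ps. Skeletal muscle markers summed to 99 to 3194 in WT_TNBS and 72 to 406 in WT, and to 609 to 5884 in KO_TNBS and 790 to 3765 in KO. None of those 8 markers was called with TNBS by limma, and at an unadjusted p under 0.05 there was 1 in wild type and 0 in knockouts. The log2 difference of the Gapdh 3-prime and 5-prime probe sets, a measure of RNA integrity, was 0.965 to 1.17 in WT_TNBS and 1 to 1.1 in WT, and 0.906 to 0.988 in KO_TNBS and 0.956 to 1.07 in KO. The part of the leukocyte and muscle markers and of RNA integrity in these results was not tested.

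Under TNBS, 2 of the 9 member sets fell in knockouts relative to wild type, Gsdmc2 and Gsdmcl-ps, and none rose. With the replicate number as a block in the fit the Gsdmc2 call was lost, at a difference of -0.49. Of all sets 8.81% passed in this comparison, 4.35% higher and 4.46% lower in KO_TNBS, and the median over the 9 sets was -0.12. Gsdmc2 averaged 13.11 ± 0.155 in KO_TNBS and 13.59 ± 0.054 in WT_TNBS, a log2 difference of -0.49 ± 0.130 SE or 0.713 of the wild-type level. The highest KO_TNBS sample, at 13.39, lay below the lowest WT_TNBS sample, at 13.52. This was the only member set whose groups did not overlap here, in a table where 1.88% of sets lay below in the same way and 1.6% above.

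Gsdmcl-ps averaged 6.95 ± 0.502 in KO_TNBS and 8.10 ± 0.348 in WT_TNBS, a log2 difference of -1.15 ± 0.258 SE. The highest KO_TNBS samples, at 7.58 and 7.56, lay above the lowest WT_TNBS sample, at 7.51, so the groups overlapped. The sets shared by Gsdmc2 with Gsdmc4 and with Gsdmc differed by -0.28 ± 0.121 and -0.19 ± 0.0644, and neither passed. Gsdmd differed by -0.12 ± 0.0677 and Gsdma by 0.35 ± 0.480, without a call.

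The leukocyte marker sum was 9567 to 18661 in KO_TNBS and 19353 to 22861 in WT_TNBS, with 4 of 11 markers lower. Of all sets 4.46% were lower. The Gapdh 3-prime and 5-prime difference was 0.906 to 0.988 in KO_TNBS and 0.965 to 1.17 in WT_TNBS (log2). Markers of skeletal muscle summed to 609 to 5884 in KO_TNBS and 99 to 3194 in WT_TNBS, ranges that overlap, and 0 of 8 were called by limma, with 6 at an unadjusted p under 0.05. The part of these 3 measures in the lower Gsdmc2 and Gsdmcl-ps values was not tested. Colon epithelium markers summed to 134293 to 145986 in KO_TNBS and 135695 to 146866 in WT_TNBS, and with their mean as a covariate the differences were -0.51 for Gsdmc2 and -1.18 for Gsdmcl-ps.

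Without TNBS none of the 9 member sets was called between knockout and wild type, by limma, and 1 set, Gsdmcl-ps, had an unadjusted p under 0.05. Among all sets 3.31% were called, 1.97% higher and 1.34% lower in KO, and 2.71% and 1.75% had groups that did not overlap in these directions. Gsdmc2 averaged 12.09 ± 0.388 in KO and 11.89 ± 0.271 in WT, a difference of 0.20 ± 0.147. The shared sets differed by 0.03 ± 0.137 (Gsdmc2 and Gsdmc4) and 0.05 ± 0.0732 (Gsdmc2 and Gsdmc), and Gsdmd by 0.14 ± 0.077. Gsdmcl-ps differed by 0.74 ± 0.293, on values near the low end of the scale, and by 0 once values below 5 were set to 5. Skeletal muscle markers separated these groups, with sums of 790 to 3765 in KO and 72 to 406 in WT and 2 of 8 called higher. At an unadjusted limma p under 0.05 there were 8 of 8. The 2 calls, Acta1 and Tnnt3, were lost in 5 and 9 of the 23 fits that left out 1 array. Leukocyte markers summed to 6866 to 11582 in KO and 10086 to 13506 in WT, with 0 of 11 called by limma and 6 at an unadjusted p under 0.05. The part of either in the values without TNBS was not tested.

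Whether TNBS acted on the members differently in the 2 genotypes was read from the difference of the 2 TNBS differences, knockout minus wild type. Of the 9 sets 1 passed, Gsdmcl-ps with -1.89 ± 0.390, against 1.16% of all sets (0.449% higher and 0.711% lower). For Gsdmcl-ps the value was -1.15 and not past the threshold once values below 5 were set to 5. With the replicate number as a block in the fit it was -1.94 and also not past the threshold. Gsdmc2 differed by -0.69 ± 0.196, the shared sets by -0.31 ± 0.183 (Gsdmc2 and Gsdmc4) and -0.23 ± 0.0975 (Gsdmc2 and Gsdmc), and Gsdmd by -0.26 ± 0.102, and none of these passed. The contrasts within each genotype use the same arrays as this one, so they are not separate evidence.

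**Figure D3:**
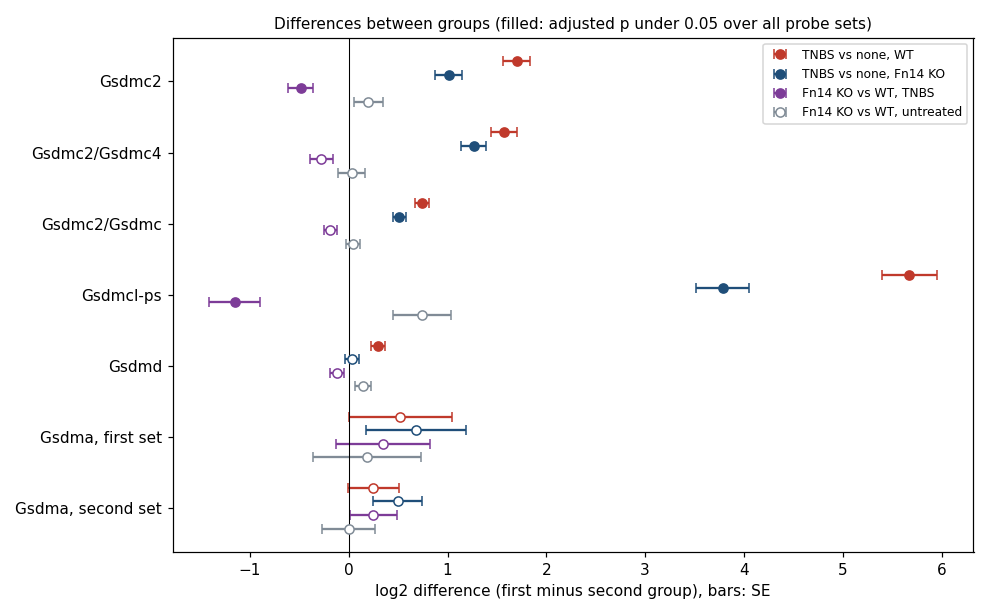
Log2 difference with its standard error for each measured member set in 4 comparisons, filled where the adjusted p over all probe sets was under 0.05. The Gsdmc2 sets and Gsdmcl-ps are filled for TNBS in both genotypes, Gsdmd for TNBS in wild type, and Gsdmc2 and Gsdmcl-ps for knockout against wild type under TNBS.

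The order of arrays within a group was compared over 5 sets that rose with TNBS, and it was most alike in the groups without TNBS. Over these sets, the 3 Gsdmc2 sets, Gsdmcl-ps and a set of the neighbouring pseudogene Gsdmcl2, KO replicate 4 was highest in 5 and KO replicates 3 and 4 were the top pair in 5, while KO replicate 2 was lowest in 5. WT replicate 4 was highest in 5 and WT replicate 3 lowest in 4. In WT the Gsdmcl-ps set lay near the lowest value, with replicates 1, 2 and 3 tied at 2.38, so its order there carries little. With TNBS the order varied more between sets: WT_TNBS replicate 1 was highest in 4, but the lowest array was replicate 4 in 3 sets and replicates 2 and 3 in 1 each. In KO_TNBS the highest was replicate 6 in 3 sets and replicates 3 and 5 in 1 each, and the lowest was replicate 1 in 3 and replicates 2 and 4 in 1 each. These sets share an array and may share transcripts, so their orders are not independent.

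Gsdmcl2, a pseudogene of the same cluster and no member, is named for its values, which were seen before it was chosen. Its first set ran from 10.21 to 11.03 in WT_TNBS and from 5.38 to 6.94 in WT, a log2 difference of 4.22 ± 0.295, and from 8.70 to 9.96 in KO_TNBS and from 5.43 to 6.85 in KO, a difference of 3.30 ± 0.285. Its second set was at the lowest value on 20 arrays, and the set of Gsdmcl1 on all 23. Of the other gasdermin genes, Gsdme, which causes a lytic death downstream of caspase-3, had 2 sets and neither was called in any comparison, with log2 differences of -0.25 ± 0.205 (limma adjusted p = 0.537) and -0.22 ± 0.319 (adjusted p = 0.857) with TNBS in wild type. The 5 sets of Gsdma2 were at or close to the lowest value, and Gsdma3 and Pjvk had no set.

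Genes whose profile over the 23 arrays was most like that of the 3 Gsdmc2 sets were found by the root mean square difference of log2 values after each gene was centred on its own mean, among 18185 genes. The median gene lay at 0.602 and a flat profile at 0.592. The closest was Cd55, an inhibitor of complement, at 0.249, then Vwf, the von Willebrand factor, at 0.258, Cbr2, a carbonyl reductase, at 0.261, and Prdm1, a transcription factor, at 0.261. Grpr, a receptor for gastrin-releasing peptide, followed at 0.273, Sh3kbp1, an adaptor protein, at 0.289, Reg4, a secreted lectin of the gut epithelium, at 0.29 and Rprm, an inhibitor of the cell cycle, at 0.291. Cd55 was 1.23 higher on the log2 scale with TNBS in wild type and 0.571 higher in knockouts, and Grpr 1.74 and 1.13. The measure describes likeness over these samples, and the genes were not chosen by a test.

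**Figure D4:**
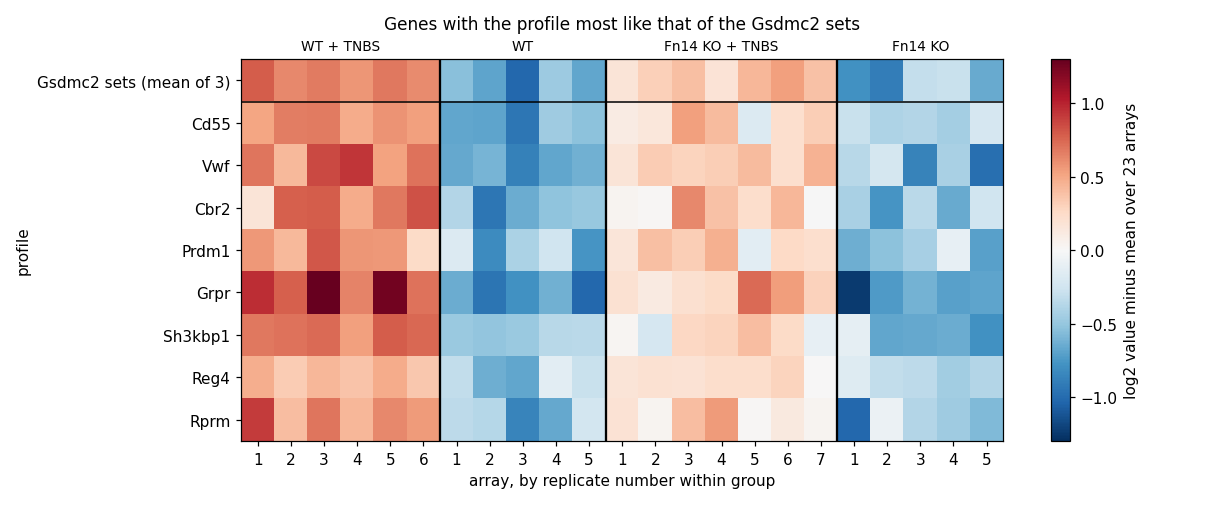
Log2 value minus the mean over 23 arrays for the mean of the 3 Gsdmc2 sets and the 8 genes most like it, 1 column per array and 4 groups. The Gsdmc2 row averages 0.658 in WT_TNBS and -0.68 in WT, and 0.341 in KO_TNBS and -0.588 in KO.

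The genes that interleukin-4 and interleukin-13 are known to raise in gut epithelium were a second list, chosen with these results known. Of 11 measured of 15, 8 rose and none fell with TNBS in wild type, where 5.91% of all sets rose. In knockouts 7 rose, where 2.32% of all sets rose. The medians were 0.78 and 0.27 on the log2 scale. Because of that choice, nothing is read from the difference between these counts and shares, and the p-values add no support to the list. The same holds for its counts between genotypes and for the lists given after it. In wild type Pla2g4c, a phospholipase, rose by 6.19 ± 0.593 (limma adjusted p = 1.41e-06), Ang4, an antimicrobial ribonuclease, by 3.28 ± 0.313 (adjusted p = 1.38e-06), Retnlb, a goblet cell product, by 1.79 ± 0.171 (adjusted p = 1.4e-06) and Fcgbp, a mucus protein, by 0.56 ± 0.0545 (adjusted p = 1.64e-06). In knockouts Ang4 rose by 4.12 ± 0.303 (adjusted p = 5.88e-08), Retnlb by 1.78 ± 0.165 (adjusted p = 2.06e-06), Itln1, an intelectin, by 3.23 ± 0.383 (adjusted p = 6.3e-05) and Pla2g4c by 4.49 ± 0.573 (adjusted p = 1.55e-04).

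Between the genotypes under TNBS, 5 of these 11 genes fell in knockouts and none rose, with a median of -0.17. Of all sets 4.46% fell and 4.35% rose in this comparison. Retnlb fell by 0.83 ± 0.157 (adjusted p = 0.00247), to 12.59 in KO_TNBS against 13.43 in WT_TNBS, and Itln1 fell by 1.39 ± 0.364 (adjusted p = 0.0209). Alox15, a lipoxygenase, fell by 2.16 ± 0.211 (adjusted p = 4.25e-06), a call that ended when values below 5 were set to 5. Fcgbp fell by 0.17 ± 0.0501 (adjusted p = 0.0376), a call lost when any of 9 single arrays was left out. Without TNBS, where 1.34% of all sets were lower in knockouts, 2 of the 11 fell. These were Retnlb (-0.83 ± 0.179, adjusted p = 0.0149) and Ang4 (-1.21 ± 0.327, adjusted p = 0.0478), and the Ang4 call did not hold in most alternatives. The Retnlb call without TNBS was lost when only those 2 groups were fitted. In this comparison skeletal muscle markers also differed, as given above.

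Genes of type 2 cytokines, alarmins, their receptors and tuft cells made a list of 14, all measured. Il13 and Il25 were at the lowest value in every group mean, and Il4 close to it. With TNBS in wild type, where 5.91% of all sets rose, 5 of the 14 did. Among them Il13ra2, a receptor that binds interleukin-13, rose by 2.06 ± 0.301 (limma adjusted p = 1.61e-04). Il4ra, the shared receptor chain, rose by 0.80 ± 0.130 (adjusted p = 4.43e-04) and Tyk2, a kinase, by 0.36 ± 0.0656 (adjusted p = 0.00133). Il33, an alarmin, rose by 0.97 ± 0.207 (adjusted p = 0.00431). In knockouts, where 2.32% of all sets rose, 1 of the 14 did, Il13ra2, by 1.34 ± 0.291 (adjusted p = 0.0103). Under TNBS, where 4.46% of all sets were lower in knockouts than in wild type, 2 of the 14 fell. These were Il4ra, by 0.60 ± 0.119 (adjusted p = 0.00349), and Tyk2, by 0.20 ± 0.0603 (adjusted p = 0.0424), a call not held in most alternatives.

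The genes that cleave gasdermins or build inflammasomes, 20 measured of 25, moved in both directions. With TNBS 5 rose and 1 fell in wild type, where 5.91% of all sets rose and 5.28% fell. In knockouts 2 rose and 2 fell, against 2.32% and 3.02% of all sets. Gzma and Gzmb, granzymes of cytotoxic lymphocytes, of which granzyme A cuts human GSDMB and granzyme B cuts GSDME, rose in wild type by 2.58 ± 0.322 (adjusted p = 3.44e-05) and 1.95 ± 0.277 (adjusted p = 1.24e-04), and in knockouts by 2.98 ± 0.311 (adjusted p = 1.24e-05) and 2.55 ± 0.268 (adjusted p = 1.34e-05). Mefv, which encodes the inflammasome sensor pyrin, rose in wild type by 1.80 ± 0.261 (adjusted p = 1.44e-04). Nlrp6, an epithelial sensor, fell by 0.57 ± 0.119 there (adjusted p = 0.0038), a call lost with the squamous covariate, as was that of Il33. With TNBS in knockouts Casp8, whose protein cuts human GSDMC, fell by 0.31 ± 0.0653 (adjusted p = 0.0086), which did not hold with either covariate, nor did the Il13ra2 call there. Naip6, a sensor of bacterial flagellin, also fell by 0.38 ± 0.0907 there (adjusted p = 0.0183). That call was lost in 4 of 12 alternatives, among them either covariate and a fit of only the groups compared. It was also lost without KO replicate 3 or KO replicate 4. Casp1, which cuts Gsdmd and was picked after its values were seen, differed by -0.15 ± 0.0572 in wild type (adjusted p = 0.108) and did not pass.

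Between the genotypes under TNBS, 6 of the 20 fell in knockouts and 1 rose, where 4.46% of all sets fell and 4.35% rose. Gzmb fell by 1.93 ± 0.255 (adjusted p = 1.23e-04), Gzma fell by 1.85 ± 0.296 (adjusted p = 6.96e-04), Mefv fell by 1.41 ± 0.239 (adjusted p = 0.00112) and Il1b, a cytokine released through Gsdmd pores, fell by 2.14 ± 0.410 (adjusted p = 0.00278). The calls of Mefv, here and with TNBS in wild type, and of Gzmb with TNBS in knockouts and between genotypes without TNBS ended when values below 5 were set to 5. Gzmb and Gzma were also lower in KO than in WT without TNBS, with differences of -2.53 ± 0.290 (adjusted p = 4.57e-05) and -2.25 ± 0.336 (adjusted p = 8.43e-04). The leukocyte and skeletal muscle sums of these groups are given above, and their part in the granzyme values was not tested.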

How the data were processed

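Biotin-labelled colon RNA was read on 1 Affymetrix array per sample. The authors deposited log2 values for 45101 probe sets, and RMA and GCRMA both appear in the submitters' processing notes. Which of them made the values, and the genome build, are not given in the sources used here. Of the sets, 64 controls were left out. The platform annotation named 1 gene for 34945 sets, several for 932 and none for 9160, and 34741 single-gene sets matched RefSeq genes of GRCm38.p6.

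All 45037 sets on 23 arrays were fitted with 4 group means in limma 3.58.1 (R 4.3.3; lmFit, contrasts, eBayes; 19 residual and 0.424 prior degrees of freedom), with Benjamini-Hochberg adjustment over all sets and a threshold of 0.05. Errors of differences are limma standard errors. The fit was tried on simulated normal values without a floor, with shifts added only to sets above the median mean. That trial therefore does not bear on sets near the lowest value. A list gene is read from its set with the highest mean. Groups come from the titles. Alternatives changed the fit, scaling, floor, filter, gene representative, block or covariate, or left out 1 array. Members, gene lists and the covariate alternatives were chosen with earlier results of these data known. List genes are named as the up to 4 called with the smallest p per comparison. Array number limits precision. Figures used Python 3.11.15 and matplotlib 3.10.9.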

Additional observations from a re-analysis of the deposited data

Results flagged for a closer look

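Among 28 groups of member values, 4 had a single array far from the rest, where chance gives about 1 in 20. WT replicate 3 was low for the set shared by Gsdmc2 and Gsdmc, at 10.71 with the next array at 11.06. Gsdmcl-ps read 2.68 on WT replicate 4, with the next at 2.38. The other 2 were on the second Gsdma set, WT replicate 4 at 2.292 within a group range of 6.7e-05 and KO replicate 5 at 2.286 within a range of 0.00582, too small to read. Gsdmcl-ps also differed between genotypes in its TNBS response, by -1.89 (knockout minus wild type, limma).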

How the results depend on the processing

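Over 35 member values, 12 alternatives and 23 arrays left out in turn gave 1193 values, of which 4 lost a call and 6 gained one. Another 6 stayed without a call but turned to 0 or to the other sign by more than the residual spread. The remaining 1177 kept their side of the threshold without such a turn. No called value changed sign, and values without a call changed sign 23 times. The lost calls were Gsdmcl-ps in the difference of TNBS responses (-1.15 with values below 5 set to 5, -1.94 with a replicate block), Gsdmc2 between genotypes under TNBS (-0.49 with a replicate block) and Gsdmd with TNBS in wild type (0.21 with the squamous covariate). Gsdmc2 gained a call in the difference of TNBS responses with only brighter sets (-0.69) and without KO replicate 2 (-0.81), and the set shared by Gsdmc2 and Gsdmc between genotypes under TNBS in 4 alternatives. Of 68 list gene results, 39 lost a call under at least 1 of the 2374 alternative values and none reversed.

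Counts of called sets changed as follows. Fitting only the groups compared gave 1217 for TNBS in knockouts and 332 for knockout against wild type without TNBS. Centring arrays on their medians gave 21154 for TNBS in wild type, where 13.9% were higher against 52.8% as deposited, 41.5% against 59.6% without TNBS and 50.9% against 38.7% in the difference of responses. Brighter sets alone gave 907 for the difference of responses. One set per gene, out of fewer tested, gave 2998 and 1556 for TNBS in wild type and in knockouts, and 1902 and 879 between genotypes, with TNBS and without it. The replicate block gave 2602 between genotypes under TNBS and 203 for the difference of responses, and the squamous covariate 1580 for TNBS in wild type and 847 in knockouts. The colon epithelium covariate, added after seeing the data, gave 267 for TNBS in knockouts and 443 between genotypes without TNBS. Leaving out 1 array gave 3477 to 5472 for TNBS in wild type and 1560 (without KO replicate 3) to 2804 in knockouts. Between genotypes it gave 2861 to 4303 with TNBS and 798 to 1797 without it, and 326 to 616 for the difference of responses. The last 2 counts were lowest without WT replicate 1 (798 and 326) and KO replicate 4 (849 and 338). The deviations of samples from their group means correlated at -0.334 to 0.382 between samples that share a number. They were over 0.1 for no more than 2 pairs in any comparison. Samples with unlike numbers were not compared in this way, so whether the numbers pair the samples is not settled. Under the block no other call of a member changed. No value exists for shared sets with one set per gene. The cause of these changes was not tested.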
